A study of Mus musculus with 24 samples.

Results

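N6-methyladenosine (m6A) is the most common internal mark on messenger RNA, and 10 genes of its machinery were followed through the entry of mouse male germ cells into meiosis. The set was chosen with earlier results of these data known, and its rows were found by exact symbol. It holds the methyltransferase subunits Mettl3 and Mettl14 with their adaptor Wtap, and the demethylase Alkbh5. The others are the YTH-domain readers Ythdc1, Ythdc2, Ythdf1, Ythdf2 and Ythdf3, and Meioc, the germ-cell partner of Ythdc2. All 10 symbols had a row of their own among the 52231 rows of the tables that were not spike-ins.

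The cells came from testes of wild-type NMRI mice whose spermatogenesis had been synchronised with WIN18,446 and retinoic acid. Each mouse received 2 mg of 5-ethynyl uridine (EU), a uridine analogue that is built into new transcripts, at 24 days after birth, and was killed 3 hours later. Cells were then sorted by DNA content into spermatogonia, preleptotene, leptotene and pachytene fractions. All groups thus share the genotype, the synchronising drugs, the EU dose and the age. Total RNA was sequenced in 3 libraries of spermatogonia from 2 mice, 1 preleptotene library, 4 leptotene libraries from 3 mice and 4 pachytene libraries from 2 mice. EU-labelled (nascent) RNA was sequenced in the same numbers of libraries from 4 other mice, so the assays share no animal. Ribosomal RNA was removed before sequencing from the total RNA but not from the nascent RNA.

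The writer complex deposits m6A in the nucleus, with Mettl3 as the catalytic subunit, Mettl14 as its partner in RNA binding and Wtap as the adaptor that holds both. Alkbh5 removes the mark, and mice without it have impaired male fertility. Ythdc1 binds m6A in the nucleus and acts in splicing and export, while Ythdf1, Ythdf2 and Ythdf3 bind it in the cytoplasm, where Ythdf2 recruits the CCR4-NOT deadenylase. Ythdc2 is an RNA helicase with a YTH domain that works with Meioc, and in mice without either gene germ cells fail to carry through the switch from mitosis to meiosis.

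In the mm10 build with GENCODE M21, Mettl3 lies on chr14:52294841-52305128, Mettl14 on chr3:123368297-123386108, Wtap on chr17:12966796-12994169 and Ythdf1 on chr2:180904377-180920949, all on the minus strand. Ythdf2 lies on the minus strand of chr4:132184912-132212303. The genes on the plus strand are Alkbh5 at chr11:60536381-60558512, Meioc at chr11:102663716-102682237, Ythdc1 at chr5:86804221-86836659, Ythdf3 at chr3:16183212-16217037 and Ythdc2 at chr18:44827746-44889724. Mettl3 overlaps Tox4 on the opposite strand, which stood at 9.77 to 24.1 FPKM in total RNA, several times the level of Mettl3. The library kit keeps the strand, but whether the authors counted by strand is not given in the sources used here, so the Mettl3 values are uncertain to that extent.

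Ythdf1 and Ythdf2 each passed as lower in total RNA of pachytene cells in the main test, though not under every alternative given below. Upstream sequences are shown for both, and for Meioc, the most abundant of the 10 transcripts. They come from RefSeq for GRCm38.p6, the same assembly as mm10, and run 5′ to 3′ on the gene's strand towards the RefSeq start site, leaving out bases that lie in a GENCODE exon. The GENCODE model of Meioc begins further upstream, so the Meioc window lies within that gene but outside its exons. Capitals mark the motifs found, which are CCAAT (on either strand) and the E-box CACGTG.

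Ythdf1, chr2:180920950-180921186, minus strand: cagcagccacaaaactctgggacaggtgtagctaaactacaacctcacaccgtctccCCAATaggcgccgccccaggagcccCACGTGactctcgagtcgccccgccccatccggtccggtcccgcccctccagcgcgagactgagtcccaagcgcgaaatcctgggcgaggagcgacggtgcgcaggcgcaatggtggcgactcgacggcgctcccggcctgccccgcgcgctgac

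Ythdf2, chr4:132212304-132212506, minus strand: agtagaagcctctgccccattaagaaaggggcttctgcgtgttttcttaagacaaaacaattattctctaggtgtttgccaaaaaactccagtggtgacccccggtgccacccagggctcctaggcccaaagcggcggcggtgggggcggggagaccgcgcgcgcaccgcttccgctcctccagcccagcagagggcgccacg

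Meioc, chr11:102665335-102665584, plus strand: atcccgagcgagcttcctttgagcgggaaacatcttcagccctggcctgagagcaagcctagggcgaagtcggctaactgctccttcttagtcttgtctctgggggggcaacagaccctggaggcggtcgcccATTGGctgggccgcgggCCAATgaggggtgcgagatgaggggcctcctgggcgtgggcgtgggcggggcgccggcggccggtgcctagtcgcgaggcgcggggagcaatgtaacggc

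The search covered 4 motifs on both strands of the 250 bases before the start site. The E-box CACGTG, whose letters read the same on both strands, was found in 1 of the 7 genes with a RefSeq promoter, 168 bases before the Ythdf1 start, and in 6.02% of all 32851 promoters. CCAAT was found in Ythdf1, Alkbh5, Wtap and Meioc and in 33.8% of all promoters. In Meioc it occurs both 117 and 100 bases before the start. The CNCCTCAG motif reported for STRA8, the factor that drives meiotic entry, was in 6.42% of all promoters and in none of the 7 genes. The cyclic-AMP response element TGACGTCA was in 1.55% and also in none of them. These matches describe letters, not binding, and Ythdf1 and Ythdf2 shared none of the motifs. Mettl14, Ythdf3 and Ythdc2 were not matched.

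The libraries differed in ways that bear on these genes. Leptotene library 2 held 94.3 FPKM of Piwil1, a pachytene gene, in total RNA, against 1.596 to 5.08 in the other leptotene libraries and 84.7 to 162 in pachytene. Its nascent counterpart held 40.7 FPKM of Piwil1, against 0.319 to 0.359 in the other nascent leptotene libraries. Dmc1, a recombinase of early prophase, stood at 9.04 FPKM in total leptotene library 2 and at 19.9 to 60.3 in the others. The single preleptotene library held 48.5 FPKM of Dmc1, within the leptotene range. Where leaving out leptotene library 2 changed a call among the 10 genes, the value without it is given. Spermatogonia carried markers of other cells of the testis: the 19 Sertoli, Leydig, peritubular, vascular and blood markers summed to 413 to 768 FPKM in their total RNA, with no marker at 0. The same sum was 51.7 in preleptotene, 10.004 to 45.1 in leptotene and 9.05 to 11.5 in pachytene total RNA, where 2 to 5 of the markers were at 0. The part of these cells in the differences from spermatogonia was not tested. In nascent RNA it was 158 to 243 FPKM in spermatogonia, 20.6 in preleptotene and 3.45 to 8.42 over the leptotene and pachytene libraries. The ERCC spike-in rows took 2.49% to 8.19% of the summed FPKM of total libraries and 5.01% to 76.5% of that of nascent libraries. The tables give no read counts, and the low values did not resolve into whole reads (36.6% to 45.6% of them lay within 0.05 of one), so the depth behind each value is unknown.

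Levels of the 10 genes spanned a wide range. FPKM, a fragment count scaled to transcript length and library size, corrects for transcript length, so levels can be set side by side between genes. By its median over the 12 total RNA libraries, Meioc came first at 78.6 FPKM, with a range of 20.5 to 129.97. Alkbh5 followed at 37.4, then Ythdf1 at 14.5, Ythdf2 at 13.0, Ythdf3 at 10.8 and Ythdc2 at 7.22 FPKM. Ythdc1 at 4.22, Wtap at 2.39, Mettl14 at 1.89 and Mettl3 at 1.54 FPKM were lowest. The readers and the eraser were thus listed above the writer subunits. Ranges of neighbours in this order overlapped at every step, from Meioc and Alkbh5 (12.7 to 110.3) down to Mettl14 (0.131 to 4.64) and Mettl3 (1.14 to 2.51). In nascent RNA, Meioc at 90.4, Alkbh5 at 47.4 and Ythdf1 at 19.7 FPKM again led, and Mettl3 at 0.941 was again last.

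**Figure D1:**
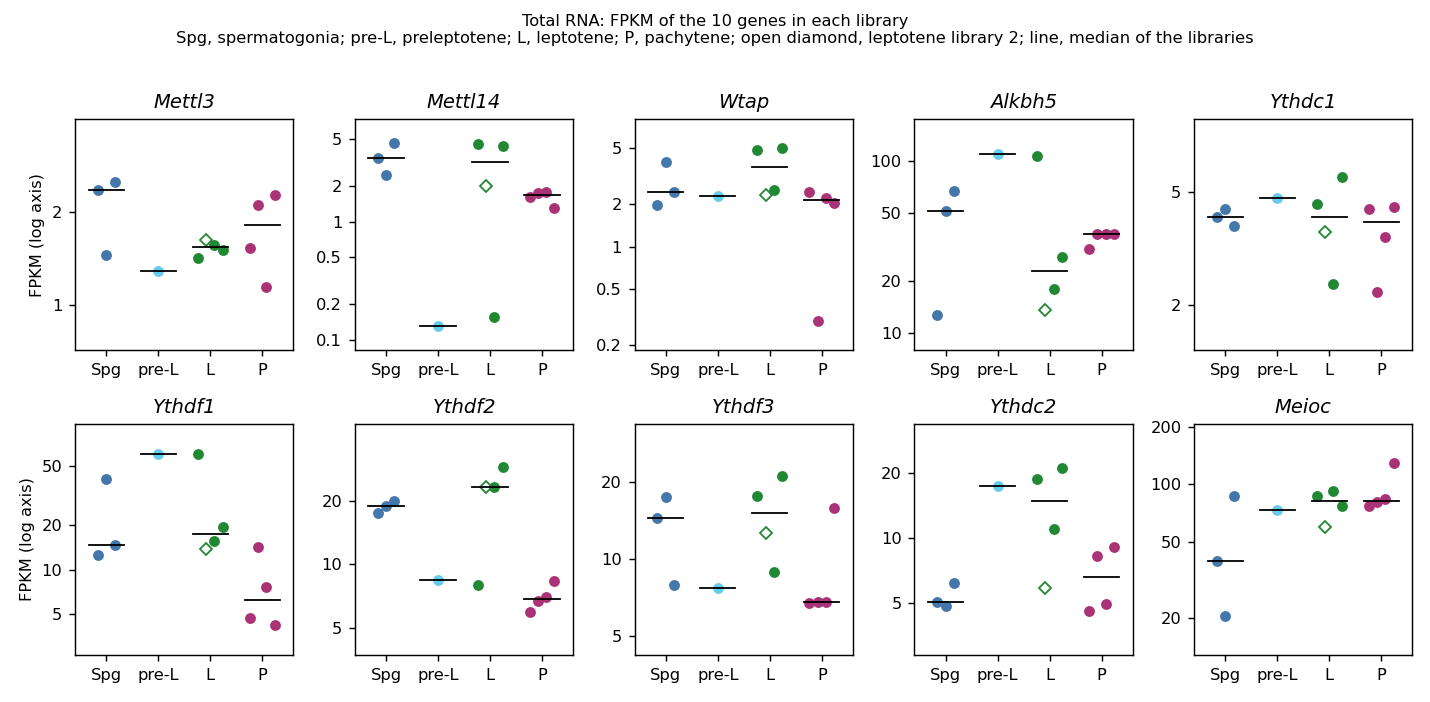
FPKM in total RNA (log axis) of the 10 genes in each of 12 libraries by stage, with each point a library, the line the median and the open diamond leptotene library 2. Ythdf1 and Ythdf2 are low in pachytene, Ythdc2 is high in preleptotene and in 3 of 4 leptotene libraries, and Mettl14 drops to 0.131 and 0.156 FPKM in 2 libraries.

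Comparisons between stages used limma on log2(FPKM + 1) with libraries of the same mouse averaged, and a gene was called where its p, adjusted across the whole table by the Benjamini-Hochberg method, was under 0.05. Fold changes on this scale understate changes of low genes such as the writers. The replicates are mice, 2 or 3 a stage, and the p-values cover the spread between them. The preleptotene fraction is a single library and was not tested. Where leaving out a library or a mouse left a stage with 1 mouse, as for spermatogonia library 3 or either pachytene mouse, that mouse is assumed to vary like those of the other stages. Some mice gave cells of 2 stages, and a fit with the mouse as a block has few degrees of freedom left. Its value is given beside each call, and none of the 8 calls among these 10 genes passed in it.

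Between spermatogonia and leptotene total RNA, none of the 10 genes passed, where 9.81% of all 19202 genes did (0.286% rose and 9.52% fell). Without adjustment 1 of the 10 had p under 0.05. Between leptotene and pachytene, 2 of 10 fell and none rose, against 17.7% of all genes falling, 22.4% rising and 40.2% called in either direction. Between spermatogonia and pachytene, 2 of 10 fell and none rose, against 29.7% falling, 23.1% rising and 52.8% called. The share of these genes called was thus close to or under that of all genes. The median change of the 10 was 0.15, -0.43 and -0.30 in the order of those comparisons, beside -0.07, -0.07 and -0.14 for all genes. Without leptotene library 2, Ythdc2 was called between spermatogonia and leptotene total RNA, and Ythdf1, Ythdc2 and Wtap between leptotene and pachytene. None of the 10 was called between spermatogonia and pachytene in that fit. The shares of all genes above are from the fit with all libraries, and those without library 2 are not given here. In sorted bulk samples, fewer cells of a type and less RNA per cell cannot be told apart.

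Among the writers, Mettl3 was low throughout. It stood at 2.35, 1.45 and 2.51 FPKM in total RNA of spermatogonia, 1.29 in preleptotene, 1.42 to 1.62 in leptotene and 1.52, 2.11, 1.14 and 2.27 in pachytene. The stages overlapped, and its changes of -0.33 ± 0.27 (leptotene minus spermatogonia), 0.10 ± 0.27 (pachytene minus leptotene) and -0.22 ± 0.30 (pachytene minus spermatogonia; log2, SE) did not pass, with adjusted p of 0.557, 0.780 and 0.564. Nascent Mettl3 was at 1.53 to 2.96 FPKM in spermatogonia, 0.996 in preleptotene, 0.557 to 2.78 in leptotene and 0.420 to 1.46 in pachytene. Pachytene lay below spermatogonia without overlap, and its change of -0.93 ± 0.47 did not pass (adjusted p = 0.135), except that without leptotene library 3 Mettl3 had an adjusted p of 0.0391.

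Mettl14 was uneven between libraries. Total RNA held 3.47, 2.48 and 4.64 FPKM in spermatogonia, 0.131 in preleptotene, 4.52, 1.99, 0.156 and 4.40 in leptotene and 1.62, 1.76, 1.78 and 1.30 in pachytene. All 4 pachytene libraries lay below all 3 of spermatogonia, while leptotene library 3 and the preleptotene library were close to 0. The nascent libraries of preleptotene and leptotene 3, from other mice, were not low for it, at 7.79 and 5.65 FPKM. Its total RNA change from spermatogonia to pachytene was -0.85 ± 0.64 (adjusted p = 0.292), and without leptotene library 3 Mettl14 had an adjusted p of 0.0481 at the same size.

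In nascent RNA Mettl14 did fall. It stood at 2.93, 3.43 and 4.59 FPKM in spermatogonia, 5.88, 2.66, 5.65 and 6.13 in leptotene and 0.902, 0.744, 1.37 and 1.80 in pachytene, so that every pachytene library was under every library of the other stages. The change was -1.52 ± 0.38 from leptotene to pachytene (adjusted p = 0.0114) and -1.16 ± 0.41 from spermatogonia to pachytene (adjusted p = 0.0412). With the mouse as a block the changes were -1.59 (adjusted p = 0.208) and -1.28 (adjusted p = 0.396). With libraries rescaled by their median ratio, the changes of Mettl14 were -1.36 (adjusted p = 0.00624) and -0.96 (adjusted p = 0.0281). Without leptotene library 1 the first had an adjusted p of 0.0900, and without either pachytene mouse Mettl14 had one of 0.0780 or 0.0827 there. The second lost its call without leptotene library 1 or 4, pachytene library 1 or 2, either pachytene mouse, spermatogonia library 2 or 3 or spermatogonia mouse IND7, with adjusted p from 0.0507 to 0.216. Without leptotene library 2 the adjusted p for Mettl14 was 0.00306 and 0.0193.

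Wtap held 1.99, 4.03 and 2.46 FPKM in spermatogonia, 2.29 in preleptotene, 4.84, 2.34, 2.52 and 5.04 in leptotene and 2.44, 0.296, 2.24 and 2.06 in pachytene total RNA. Leptotene minus spermatogonia was 0.31 ± 0.35 (adjusted p = 0.665) and pachytene minus leptotene -0.82 ± 0.35 (adjusted p = 0.0953). Without leptotene library 2, the leptotene and pachytene libraries no longer overlapped and the latter change of Wtap passed, at -0.95 (adjusted p = 0.0475). The 2 pachytene libraries of mouse IND4, at 0.296 and 2.06 FPKM, differed by a log2 of 1.24, where the median gene differed by 0.138. Nascent Wtap was at 1.98 to 3.89 FPKM in spermatogonia, 4.64 in preleptotene, 1.12 to 5.36 in leptotene and 0.580 to 3.66 in pachytene, and its stages overlapped. Its nascent change from leptotene to pachytene was -0.68 ± 0.46 (adjusted p = 0.275).

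Alkbh5, the eraser, varied widely between libraries of 1 stage. In total RNA it stood at 12.7, 51.6 and 67.3 FPKM in spermatogonia, 110.3 in preleptotene, 107.6, 13.5, 17.9 and 27.8 in leptotene and 31.0, 37.4, 37.4 and 37.5 in pachytene. The preleptotene library and leptotene library 1 stood far above the rest, and pachytene libraries agreed closely. Leptotene libraries 1 and 2, which come from the same mouse, differed 7.98-fold. None of its total RNA comparisons passed, with changes of -0.62 ± 0.48, 0.40 ± 0.48 and -0.22 ± 0.52 and adjusted p of 0.518, 0.528 and 0.747. The Alkbh5 change from leptotene to pachytene turned to -0.08 (adjusted p = 0.934) without leptotene library 2.

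Nascent Alkbh5 was lower in pachytene than in spermatogonia. It held 49.9, 59.5 and 90.1 FPKM in spermatogonia, 146.8 in preleptotene, 143.2, 44.8, 22.3 and 128.9 in leptotene and 11.3, 14.2, 23.0 and 21.0 in pachytene. Pachytene and spermatogonia did not overlap, while leptotene library 3 lay within the pachytene range. The change from spermatogonia to pachytene was -2.01 ± 0.72 (adjusted p = 0.0417), and from leptotene to pachytene -1.82 ± 0.65 (adjusted p = 0.0553). The latter passed without leptotene library 3 (-2.54, adjusted p = 0.00610), pachytene library 3 (adjusted p = 0.0360) or 4 (adjusted p = 0.0452) or spermatogonia mouse IND7 (adjusted p = 0.0467). The change from spermatogonia turned to 0.18 under the mouse block, with an adjusted p of 0.950. Median-ratio scaling gave -1.73 with an adjusted p of 0.0751. The Alkbh5 call was also lost without leptotene library 1 or 2, leptotene mouse IND5, pachytene library 1 or 2, either pachytene mouse, spermatogonia library 2 or 3 or spermatogonia mouse IND7, with adjusted p from 0.0539 to 0.247. In nascent RNA, 1 of the 10 genes fell from leptotene to pachytene against 15.4% of all 16375 genes, and 2 of 10 fell from spermatogonia to pachytene against 27.9%. Of all genes, 15.8% and 15.6% rose in those comparisons, and 31.2% and 43.5% were called in either direction. None was called between spermatogonia and leptotene, where 10.6% of all genes were (0.696% rose and 9.9% fell) and none of the 10 had an unadjusted p under 0.05. The spike-in share of nascent libraries was 8.86% to 59.0% in spermatogonia, 5.01% to 69.2% in leptotene and 64.9%, 69.1%, 76.5% and 13.1% in pachytene. Scaled by spike-ins instead, nascent Mettl14 was at -2.83 (adjusted p = 0.763) from leptotene and -2.30 (adjusted p = 0.749) from spermatogonia, and Alkbh5 at -3.50 (adjusted p = 0.696) from spermatogonia, with no gene of the genome called in either comparison.

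**Figure D2:**
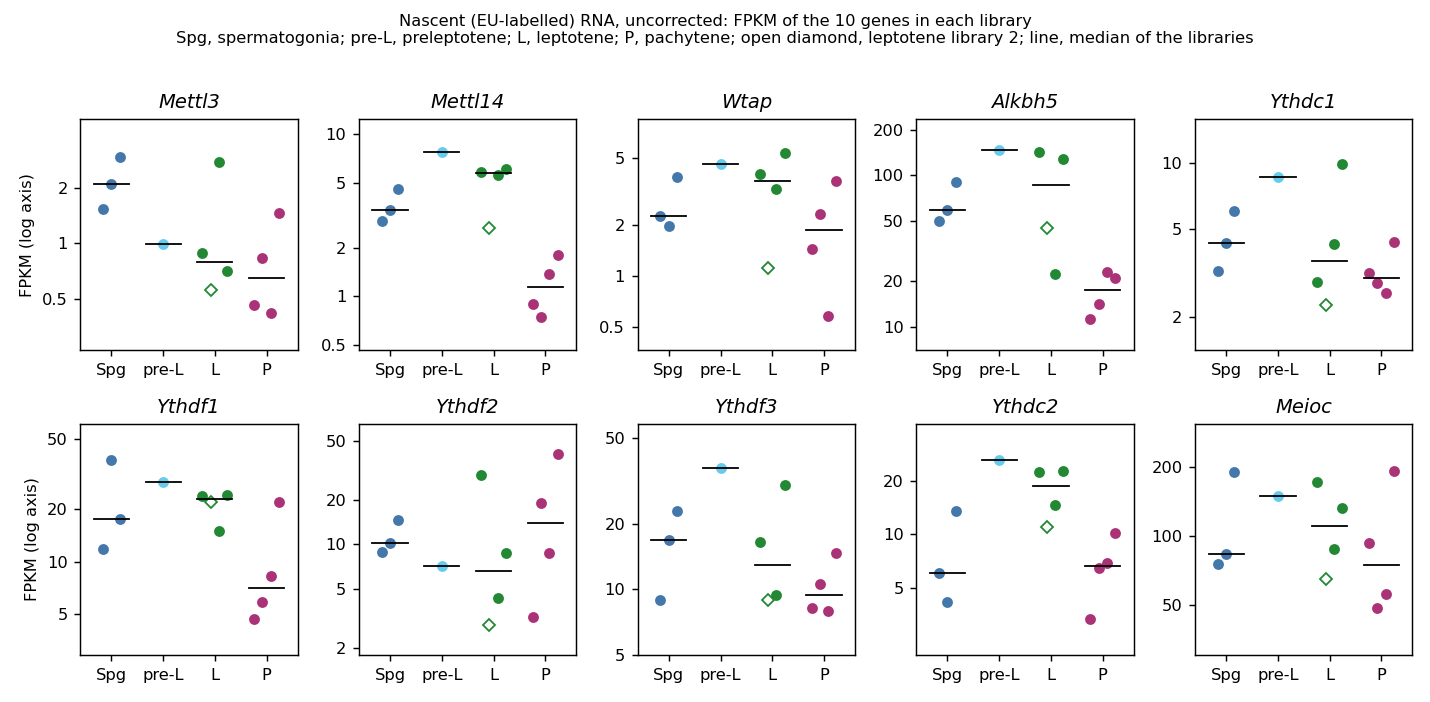
FPKM in nascent RNA (log axis) of the 10 genes in each of 12 libraries by stage, drawn as for total RNA. Mettl14 in pachytene (0.744 to 1.80) lies under all other libraries, and Alkbh5 in pachytene (11.3 to 23.0) lies under all spermatogonia libraries.

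Ythdc1, the nuclear reader, overlapped between all stages. Total RNA held 4.10, 4.35 and 3.81 FPKM in spermatogonia, 4.76 in preleptotene, 4.55, 3.62, 2.37 and 5.64 in leptotene and 4.35, 2.22, 3.47 and 4.42 in pachytene. Its 3 changes lay between -0.15 and -0.05 with SE of 0.35 to 0.38, and none passed (adjusted p of 0.950, 0.841 and 0.767). Nascent Ythdc1 was at 3.25 to 6.08 FPKM in spermatogonia, 2.27 to 9.90 in leptotene and 2.58 to 4.40 in pachytene, and changed by -0.49 ± 0.49 from leptotene to pachytene (adjusted p = 0.475).

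Of the cytoplasmic readers, Ythdf1 and Ythdf2 fell in total RNA of pachytene cells. Ythdf2 stood at 17.4, 18.8 and 19.9 FPKM in total RNA of spermatogonia, 8.46 in preleptotene, 7.98, 23.2, 23.2 and 28.8 in leptotene and 6.003, 6.70, 7.01 and 8.35 in pachytene. Every pachytene library lay under every library of spermatogonia, and 3 of 4 leptotene libraries were high while library 1 lay within the pachytene range. Ythdf2 fell to pachytene, with a log2 change of -1.46 ± 0.37 from leptotene (adjusted p = 0.0147) and -1.32 ± 0.41 from spermatogonia (adjusted p = 0.0232).

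Ythdf1 stood at 12.6, 41.0 and 14.7 FPKM in total RNA of spermatogonia, 60.7 in preleptotene, 60.4, 13.9, 15.7 and 19.3 in leptotene and 4.73, 14.2, 7.69 and 4.25 in pachytene. Of the 4 pachytene libraries, 3 were lower than all others, and pachytene library 2 overlapped with spermatogonia and leptotene. Without leptotene library 2 the leptotene and pachytene values no longer overlapped. Ythdf1 fell to pachytene, with a change of -1.45 ± 0.38 from leptotene (adjusted p = 0.0165) and -1.29 ± 0.42 from spermatogonia (adjusted p = 0.0287).

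With the mouse as a block, the falls of Ythdf1 were -0.90 and -0.55 (adjusted p = 0.417 and 0.680), and those of Ythdf2 -1.51 and -1.44 (adjusted p = 0.155 and 0.235), from leptotene and from spermatogonia in turn. Scaling by spike-ins, which moved the median of all genes from -0.07 to 0.62 between leptotene and pachytene, left Ythdf1 at -0.57 and Ythdf2 at -0.56 there, with adjusted p of 0.377 and 0.440. Without leptotene library 2, Ythdf1 changed by -1.79 (adjusted p = 0.0286) from leptotene, and Ythdf2 was at -1.23 (adjusted p = 0.0698). From spermatogonia, the adjusted p of Ythdf1 without that library was 0.108 and that of Ythdf2 0.0695, since the fit shares its spread. Leaving out leptotene library 1 took both calls from leptotene (adjusted p = 0.192 for Ythdf1 and 0.168 for Ythdf2) and the Ythdf1 call from spermatogonia (adjusted p = 0.0643). Leaving out either pachytene mouse took all 4 calls of Ythdf1 and Ythdf2, with adjusted p from 0.0706 to 0.152. Leaving out pachytene library 4 took both Ythdf1 calls (adjusted p = 0.0888 and 0.155), spermatogonia library 2 the Ythdf1 call from spermatogonia (adjusted p = 0.0879) and spermatogonia library 3 that of Ythdf2 (adjusted p = 0.101). Without spermatogonia mouse IND3 neither call from spermatogonia held (adjusted p = 0.182 for Ythdf1 and 0.0860 for Ythdf2).

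Ythdf3 was at 14.5, 17.6 and 7.95 FPKM in spermatogonia, 7.74 in preleptotene, 17.6, 12.6, 8.95 and 21.1 in leptotene and 6.78, 6.84, 6.80 and 15.8 in pachytene total RNA. Pachytene libraries 1 to 3 agreed closely and the remaining one lay within the range of earlier stages. Its change from leptotene to pachytene was -0.68 ± 0.45, adjusted p = 0.250.

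Summed over Ythdf1, Ythdf2 and Ythdf3, the cytoplasmic readers came to 44.6, 77.3 and 42.5 FPKM in spermatogonia, 77.0 in preleptotene, 86.0, 49.7, 47.9 and 69.2 in leptotene and 17.5, 27.8, 21.5 and 28.4 in pachytene. All pachytene sums were under all earlier ones. The mixture behind similar sums differed: Ythdf1 made 78.9% of the sum in preleptotene and 70.2% in leptotene library 1, with Ythdf2 at 10.998% and 9.28%. In leptotene libraries 2, 3 and 4 Ythdf1 made 28.0% to 32.9%, and the Ythdf2 share over all leptotene libraries reached 48.5%. The libraries rich in Ythdf1 and poor in Ythdf2 were also the 2 that held the most Alkbh5. In total RNA, the log2 ratio of Ythdf2 over Ythdf1, taken on FPKM + 1, averaged 0.04 ± 0.52 (SD, n = 2 mice) in spermatogonia. It averaged 0.01 ± 0.91 (n = 3) in leptotene and 0.00 ± 0.11 (n = 2) in pachytene. The exact permutation p was 1 for each difference, where the smallest possible is 0.2 or 0.333. The SD leave out the spread within a mouse. Pachytene libraries 2 and 4 of mouse IND4 stood at -0.98 and 0.83, and leptotene libraries 1 and 2 of mouse IND1 at -2.77 and 0.70. The ratio was thus not steady within a stage.

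**Figure D3:**
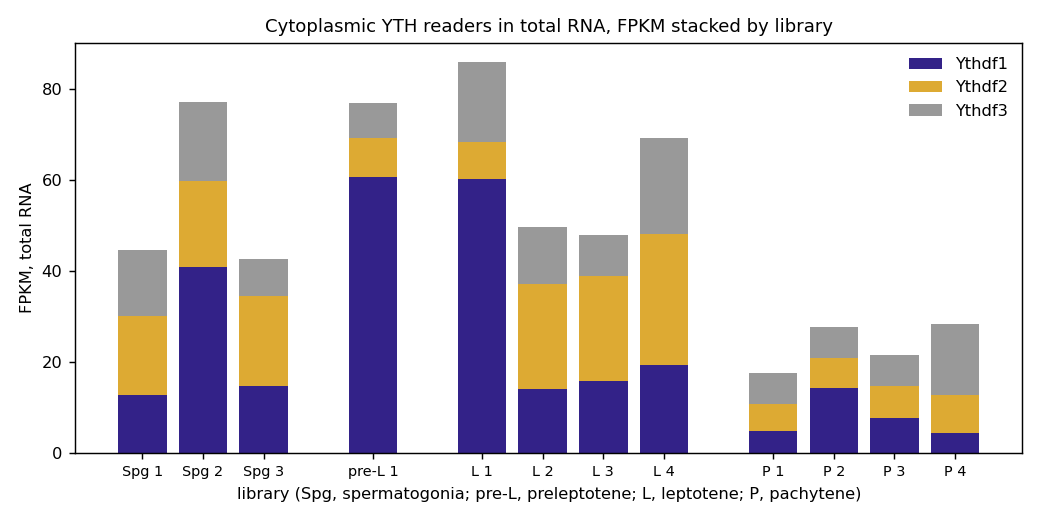
FPKM in total RNA of Ythdf1, Ythdf2 and Ythdf3, stacked for each of 12 libraries named by stage and number. The 4 pachytene stacks reach 17.5 to 28.4 FPKM and all others 42.5 to 86.0, and Ythdf1 makes most of the stack in preleptotene and leptotene library 1.

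None of the 3 readers passed in nascent RNA over all libraries. Nascent Ythdf1 was 11.8, 38.2 and 17.5 FPKM in spermatogonia, 28.3 in preleptotene, 14.9 to 24.1 in leptotene and 4.70, 5.90, 8.31 and 21.9 in pachytene, a change of -1.15 ± 0.44 from leptotene (adjusted p = 0.0680). That change of Ythdf1 passed without leptotene library 2 (-1.17, adjusted p = 0.0481) or pachytene library 3 (adjusted p = 0.0429) or 4 (-1.58, adjusted p = 0.0114). Its change from spermatogonia passed without spermatogonia library 1 (adjusted p = 0.0374) or pachytene library 4 (adjusted p = 0.0129). Nascent Ythdf2 was 8.92, 10.3 and 14.5 in spermatogonia, 7.16 in preleptotene, 29.4, 2.86, 4.36 and 8.76 in leptotene and 3.21, 19.1, 8.77 and 40.9 in pachytene. It was thus highest in a pachytene and a leptotene library, and its change from leptotene to pachytene was 0.72 ± 0.61 (adjusted p = 0.388). Nascent Ythdf3 was at 8.94 to 22.9 FPKM in spermatogonia, 36.4 in preleptotene, 8.89 to 30.3 in leptotene and 7.98 to 14.8 in pachytene. It changed by -0.55 ± 0.54 (adjusted p = 0.455) over the same step.

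Ythdc2 had its highest values in preleptotene and leptotene libraries. Total RNA held 5.05, 4.80 and 6.20 FPKM in spermatogonia, 17.5 in preleptotene, 18.9, 5.87, 11.01 and 21.3 in leptotene and 4.57, 8.24, 4.91 and 9.08 in pachytene. The 3 leptotene libraries other than library 2 lay above all libraries of spermatogonia and pachytene, and library 2 lay among them. Over all libraries its change was 1.16 ± 0.41 from spermatogonia to leptotene (adjusted p = 0.129) and -0.97 ± 0.41 from leptotene to pachytene (adjusted p = 0.0852), neither of which passed. Without leptotene library 2, Ythdc2 rose by 1.42 (adjusted p = 0.0450) and then fell, with a change of -1.23 (adjusted p = 0.0229). In the 9 libraries that have a counterpart in the 5S-corrected table, which lack leptotene libraries 2 and 3 and pachytene library 3, the values were 1.69 (adjusted p = 0.0164) and -1.52 (adjusted p = 0.00848). With the mouse as a block they were 1.30 (adjusted p = 0.120) and -0.32 (adjusted p = 0.786). The Dmc1 level moved with it, being 57.4 and 60.3 FPKM in leptotene libraries 1 and 4 and 9.04 and 19.9 in libraries 2 and 3.

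Nascent Ythdc2 stood at 6.09, 4.17 and 13.5 FPKM in spermatogonia, 26.1 in preleptotene, 22.5, 11.1, 14.7 and 22.7 in leptotene and 3.38, 6.51, 6.88 and 10.2 in pachytene. Pachytene lay below all leptotene libraries. The change from leptotene to pachytene was -1.33 ± 0.48 (adjusted p = 0.0568). Nascent Ythdc2 passed without leptotene library 2 (-1.49, adjusted p = 0.0351), without spermatogonia library 3 (adjusted p = 0.0497) or mouse IND7 (adjusted p = 0.0468) and without pachytene library 3 (adjusted p = 0.0363) or 4 (adjusted p = 0.0326). The change from spermatogonia to leptotene was 0.98 ± 0.48 (adjusted p = 0.243).

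Meioc was abundant at every stage. Total RNA held 39.7, 20.5 and 86.5 FPKM in spermatogonia, 73.5 in preleptotene, 86.5, 59.7, 92.6 and 76.6 in leptotene and 76.7, 80.4, 83.5 and 129.97 in pachytene. Spermatogonia spanned the widest range, and the meiotic stages overlapped. Its changes of 0.67 ± 0.46, 0.18 ± 0.46 and 0.85 ± 0.51 did not pass, with adjusted p of 0.463, 0.780 and 0.192. Without spermatogonia library 3, the highest of them, the last change was 1.63, and without the mouse that gave libraries 1 and 2 Meioc was at 0.06. Each of these fits leaves spermatogonia with 1 mouse, so only the size of the change is given. Of 23 alternatives to the main fit, 2 called this change, 1 of them a fit that left out a library or mouse. Nascent Meioc was 75.7, 83.5 and 190.1 FPKM in spermatogonia, 149.8 in preleptotene, 172.4, 64.9, 87.6 and 132.6 in leptotene and 93.1, 48.6, 56.1 and 192.6 in pachytene, and none of its nascent comparisons passed.

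Meioc FPKM over Ythdc2 FPKM within a library does not depend on how libraries are scaled. The log2 ratios of FPKM + 1 behind the means and tests do depend on it, more so for low genes. Meioc FPKM over Ythdc2 FPKM in nascent RNA was 12.4, 20.0 and 14.1 in spermatogonia, 5.74 in preleptotene, 7.65, 5.87, 5.96 and 5.83 in leptotene and 27.6, 7.47, 8.16 and 18.9 in pachytene. Leptotene, library 2 included, lay below all of spermatogonia. On the log2 scale of FPKM + 1 the nascent ratio averaged 3.73 ± 0.0067 (SD, n = 2 mice) in spermatogonia, 2.55 ± 0.0984 (n = 3) in leptotene and 3.53 ± 0.158 (n = 2) in pachytene. These SD leave out the spread within a mouse. On the same scale, spermatogonia libraries 1 and 2 of mouse IND7 stood at 3.44 and 4.03, and pachytene libraries 2 and 4 of mouse IND8 at 2.72 and 4.11. The differences of -1.18 and 0.98 each had an exact two-sided permutation p of 0.2, the smallest this design allows. In total RNA the Meioc over Ythdc2 ratio was 7.86, 4.26 and 14.0 in spermatogonia, 4.19 in preleptotene, 4.59, 10.2, 8.41 and 3.599 in leptotene and 16.8, 9.76, 17.0 and 14.3 in pachytene. On the log2 scale of FPKM + 1 its pachytene minus leptotene difference was 1.15 (exact permutation p = 0.2), and leptotene library 2 overlapped with pachytene.

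**Figure D4:**
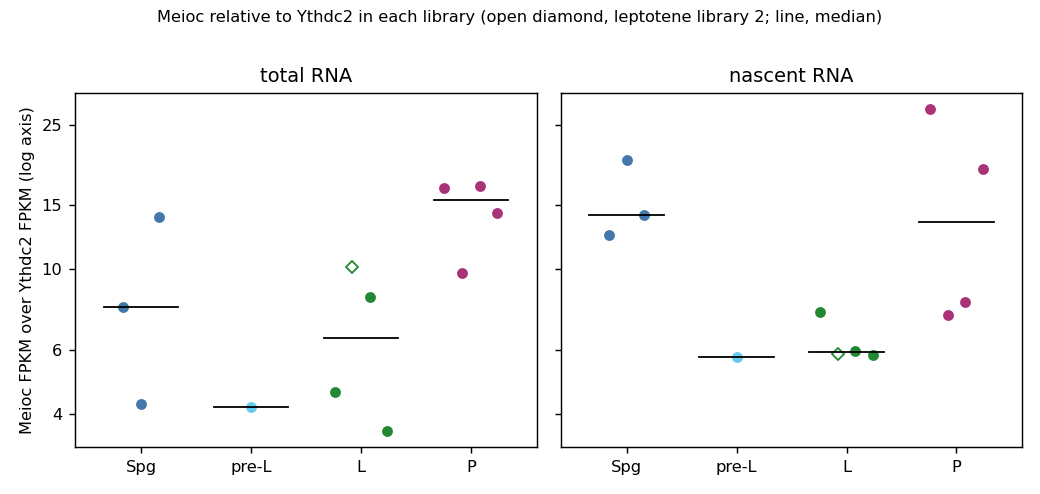
Meioc FPKM over Ythdc2 FPKM (log axis) in each library by stage, in total and nascent RNA, with the line the median and the open diamond leptotene library 2. In nascent RNA the leptotene libraries lie at 5.83 to 7.65 and spermatogonia at 12.4 to 20.0.

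Ratios between other members were taken in the same way. Ythdf3 over Ythdf1 in total RNA differed by 0.77 between leptotene and pachytene (exact permutation p = 0.2). Nascent Ythdf2 over Ythdf1 averaged -0.67 ± 0.59 in spermatogonia (SD, n = 2), -1.36 ± 0.22 in leptotene (n = 3) and 0.51 ± 0.98 in pachytene (n = 2). Its changes to leptotene and then to pachytene, of -0.69 and 1.87, each had an exact permutation p of 0.2. Nascent leptotene libraries 1 and 2 of mouse IND5 stood at 0.30 and -2.56. Mettl3 over Mettl14 in nascent RNA was -0.54 ± 0.0560 in spermatogonia (SD, n = 2), -1.48 ± 0.63 in leptotene (n = 3) and -0.31 ± 0.36 in pachytene (n = 2), with an exact permutation p of 0.2 for both steps. Alkbh5 over Mettl3 in total RNA differed by -0.30 and 0.30 at those steps, each with an exact permutation p of 0.6. With 5 ratios in 2 assays and 3 comparisons each, 30 such tests were made and none could pass 0.05.

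**Figure D5:**
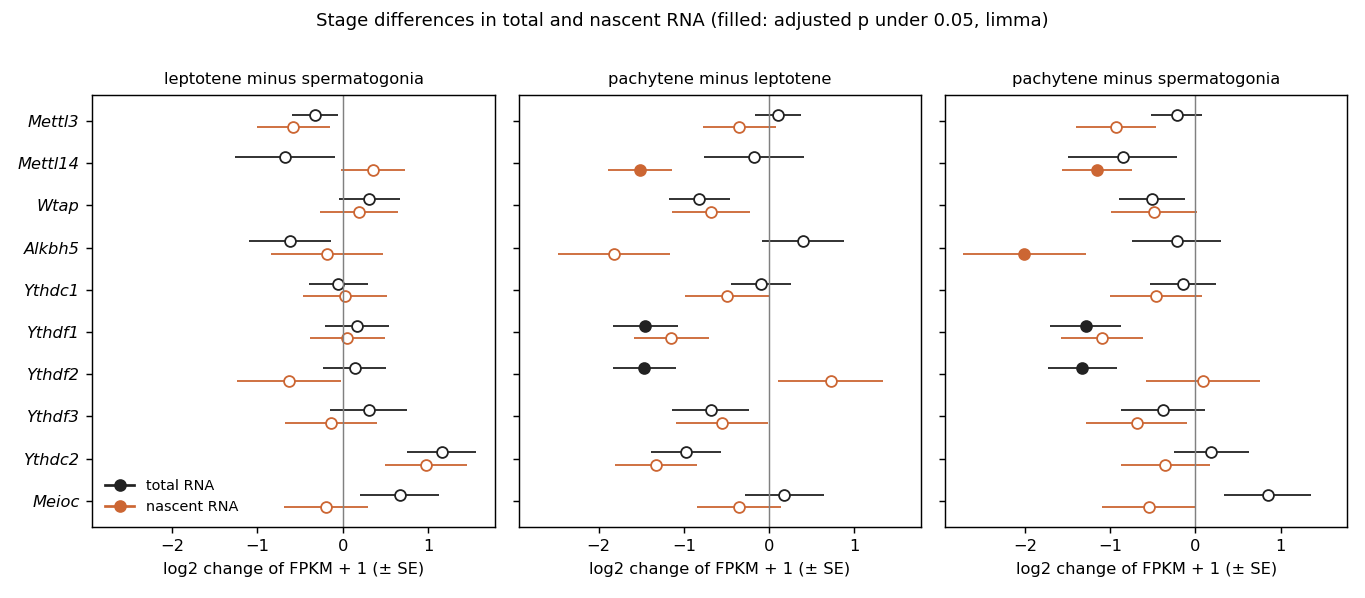
Log2 changes of FPKM + 1 (± SE, limma) of the 10 genes between stages, in total RNA (black) and nascent RNA (orange), with filled points for an adjusted p under 0.05. Ythdf1 and Ythdf2 are filled in total RNA at -1.45 and -1.46 from leptotene to pachytene, and Mettl14 in nascent RNA at -1.52.

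The 5S-corrected nascent table multiplies each nascent library by 1 constant, so the level of nascent RNA is set relative to 5S ribosomal RNA. In it the median gene changed by -1.001 from spermatogonia to leptotene and by 0.86 from leptotene to pachytene. The 10 genes had medians of -1.13 and 0.77. Mettl3 was the single gene of the set to pass: its corrected signal was 5.99, 5.71 and 2.79 in spermatogonia, 0.465 in preleptotene, 0.521 and 0.310 in leptotene and 0.810, 4.23 and 3.31 in pachytene. The change to leptotene was -1.39 ± 0.54 (adjusted p = 0.0381), against 27.5% of all 15842 genes falling, 0.271% rising and 27.8% called in either direction. With the mouse as a block the adjusted p was 0.197 at the same size, and after median-ratio scaling Mettl3 was at -0.87 (adjusted p = 0.0138). The Mettl3 call was lost without leptotene library 1 or 4, pachytene library 1 or 4, pachytene mouse IND8, spermatogonia library 2 or 3 or spermatogonia mouse IND7, with adjusted p from 0.0513 to 0.468. None of the 10 passed in the other corrected comparisons, and none had an unadjusted p under 0.05. There 34% of genes were called between leptotene and pachytene (32.6% rose and 1.34% fell), and 41.7% between spermatogonia and pachytene (18.8% rose and 22.9% fell).

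Whether total and nascent RNA changed by different amounts was asked with an interaction term over both assays. None of the 10 genes passed, and few of 19955 genes did. Between spermatogonia and leptotene 0.1% passed (0.01% higher and 0.0902% lower in total than in nascent RNA), between leptotene and pachytene 0.0752% (0.0601% higher and 0.015% lower), and between spermatogonia and pachytene 0.261% (0.0902% higher and 0.17% lower). The widest gaps were between leptotene and pachytene: the change in total RNA minus that in nascent RNA was -2.19 ± 0.78 for Ythdf2 (unadjusted p = 0.0144, adjusted p = 0.440, limma) and 2.22 ± 0.89 for Alkbh5 (unadjusted p = 0.0261, adjusted p = 0.515, limma). At meiotic entry the term was 0.87 ± 0.69 for Meioc and 0.18 ± 0.64 for Ythdc2, each with an adjusted p of 1. Total and nascent libraries come from different mice.

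Other genes of the m6A machinery give the setting. Of 21 (further writer subunits, other methyltransferases, Fto and further readers), none was called in total RNA between spermatogonia and leptotene and 3 had an unadjusted p under 0.05. By their means over all 12 total RNA libraries, the most abundant were Prrc2a, a reader, at 32.6 FPKM and Hnrnpc, an RNA-binding protein that m6A exposes to its targets, at 27.7. From leptotene to pachytene 3 fell and 1 rose, beside 17.7% and 22.4% of all genes. Igf2bp1, a reader that stabilises its targets, changed by -2.89 ± 0.53, Zc3h13, a writer subunit, by -2.16 ± 0.34 and Rbm15, which guides the writer, by -1.16 ± 0.33. Igf2bp3, a reader of the same family, rose by 2.13 ± 0.45, with adjusted p of 0.00455, 0.00323, 0.0230 and 0.00702 in that order. With the mouse as a block Rbm15 lost its call (-1.21, adjusted p = 0.266), and Igf2bp1, Zc3h13 and Igf2bp3 passed (adjusted p = 0.00148, 0.0327 and 0.0127). From spermatogonia to pachytene Igf2bp1 changed by -3.75 ± 0.58, Zc3h13 by -1.88 ± 0.37 and Igf2bp2 by -0.78 ± 0.27, and Igf2bp3 rose by 2.42 ± 0.49 (adjusted p = 0.00139, 0.00331, 0.0362 and 0.00359). The block took the calls of Zc3h13 (adjusted p = 0.0832) and Igf2bp2 (adjusted p = 0.330) there. Of all genes, 29.7% fell and 23.1% rose in that comparison. Scaled by spike-ins, 6 of the 21 rose and 2 fell from leptotene to pachytene, where Rbm15 was at -0.22 (adjusted p = 0.760). From spermatogonia 1 rose and 2 fell, and Zc3h13 was at -1.41 (adjusted p = 0.0565). That scaling moved the median of all genes to 0.62 and 0.37 in those comparisons. The share of all genes called under it is not given here. Leaving out leptotene library 2 gave counts in total RNA of 3 rising and 4 falling from leptotene to pachytene and 1 rising and 6 falling from spermatogonia. In that fit Trmt112, a methyltransferase partner, was called between spermatogonia and leptotene, at -0.82 (adjusted p = 0.0492, limma). The share of all genes called without library 2 is not given here. The median change of the 21 genes was -0.05, -0.11 and -0.30, beside -0.07, -0.07 and -0.14 for all genes. In nascent RNA, where 20 of them were tested, 1 rose and 3 fell from leptotene to pachytene, 1 rose and 5 fell from spermatogonia to pachytene, and none was called between spermatogonia and leptotene (1 at an unadjusted p under 0.05). The shares of all genes in the former comparisons were 15.8% rising and 15.4% falling, and 15.6% rising and 27.9% falling.

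Of 8 genes listed around Ythdc2 and Meioc, none was called between spermatogonia and leptotene and 1 had an unadjusted p under 0.05. Rbm46 and Xrn1 were listed as partners and Ccna2 as a target. The others were the helicases Upf1 and Mov10l1, Cnot1, a deadenylase scaffold bound by Ythdf2, Stra8 and its partner Gm4969. Over all 12 total RNA libraries Rbm46, a partner, had the highest mean at 27.9 FPKM and Upf1, an RNA helicase of mRNA decay, followed at 23.6. From leptotene to pachytene Stra8, the inducer of meiosis, changed by -3.84 ± 0.43, Gm4969 (Bhmg1), the partner of Stra8, by -3.48 ± 0.42 and Ccna2, the mitotic cyclin that Meioc and Ythdc2 act on, by -1.80 ± 0.47. Cnot1, the scaffold of CCR4-NOT, rose by 1.13 ± 0.40. Their adjusted p were 0.00312, 0.00312, 0.0161 and 0.0489, and the block kept the 3 falls and not the rise of Cnot1 (1.20, adjusted p = 0.261). These 3 falls and 1 rise among 8 genes stand beside 17.7% of all genes falling and 22.4% rising. From spermatogonia to pachytene the same 3 genes fell, with changes of -3.67 ± 0.47 (Stra8), -2.98 ± 0.46 (Gm4969) and -1.66 ± 0.51 (Ccna2), while Cnot1 rose by 1.75 ± 0.43 and Upf1 by 1.48 ± 0.42. The block took the calls of Cnot1 (adjusted p = 0.114) and Upf1 (adjusted p = 0.270). The share of all genes there was 29.7% falling and 23.1% rising. Scaling by spike-ins ended both calls of Ccna2, at -1.01 (adjusted p = 0.175) from leptotene and -1.17 (adjusted p = 0.149) from spermatogonia. It put Cnot1 at 2.09 (adjusted p = 0.00502) and Upf1 at 1.95 (adjusted p = 0.00702) from leptotene, so that 2 rose and 2 fell in both comparisons. The share of all genes called under that scaling is not given here. In nascent RNA the same 3 genes fell to pachytene from leptotene, with log2 changes of -2.91 for Stra8, -3.09 for Gm4969 and -2.12 for Ccna2 (adjusted p = 0.00199, 0.000831 and 0.0150), where 15.4% of all genes fell. The median change of the 8 genes in total RNA was 0.32, -0.39 and -0.42.

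The genes whose total RNA pattern over the 8 means of mouse and stage lay closest to that of Ythdc2, among 5082 genes compared, were Top2a, a topoisomerase of dividing cells, Nfxl1, Oip5, a kinetochore factor, Papolg, a poly(A) polymerase, and Nup153, a nuclear pore protein. Their root mean square distance from it was 0.187, 0.188, 0.193, 0.227 and 0.239 on the log2 scale. Top2a for example stood at 7.93 to 13.6 FPKM in spermatogonia, 43.0 in preleptotene, 17.4 to 48.4 in leptotene and 10.9 to 16.3 in pachytene. For Meioc the closest were Tvp23b, Zfp936, Cul1, a ubiquitin ligase scaffold, Zfp180 and Polq, a DNA polymerase of end joining, at distances of 0.155, 0.187, 0.264, 0.265 and 0.283. Both lists are descriptions over the same 8 means, which share libraries.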

How the data were processed

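Total and EU-labelled RNA of sorted testis cells were sequenced in 12 libraries each. Per the submitters' processing notes, STAR 2.5.2a and StringTie (version not given) were used with the mm10 build. The deposited tables give FPKM per gene for both assays, and a deposited 5S-corrected signal for 9 nascent libraries, which equals the nascent FPKM times 1 constant per library. No per-sample column was left unassigned (0). FPKM is relative to all RNA of a library, so a change in a few abundant RNAs moves every other gene, and read depth is unknown.

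Genes that reached 1 FPKM in 2 or more libraries were tested with limma 3.58.1 in R 4.3.3 on log2(FPKM + 1), all stages in 1 fit, libraries of the same mouse and stage averaged, two-sided, with Benjamini-Hochberg adjustment over all genes and a threshold of 0.05. The 5S-corrected signal was multiplied by 0.534 in all libraries before the same fit. The interaction fit held both assays. Ratios were tested as log2 differences of FPKM + 1 by exact permutation over mice, and the nascent ratios were added to those planned for total RNA. The fitting code was tested on simulated data. Python 3.11.15 with pandas 2.3.3, numpy 2.4.6, scipy 1.17.1 and matplotlib 3.10.9 made the tables and figures.

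The labels name the mouse of each library. The preleptotene library came from a mouse that also gave pachytene libraries, IND2 in total and IND6 in nascent RNA. Of the stages compared, spermatogonia and leptotene share 2 mice in each assay, and leptotene and pachytene 1. Deviations of libraries from the same mouse correlated at 0.0803, 0.0155 and 0.0839 in total and at -0.160, -0.119 and 0.0539 in nascent RNA. Alternatives were a pseudocount of 0.1, no filter, median-ratio and spike-in scaling, libraries entered singly, the mouse as a replicate block, the 9 libraries with a 5S-corrected counterpart, and leaving out each library or mouse.

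The 10 genes, the lists and the tests were chosen with earlier results of these data known. Of the lists, the text names genes called in total RNA (at most 4 a comparison, by size of change), and where fewer than 2 passed, the 2 most abundant. Upf1 in the comparison of pachytene with spermatogonia, Trmt112, and the nascent values of Stra8, Gm4969 and Ccna2, were named after their values were seen. Genes most alike to Meioc and Ythdc2 had a mean of at least 5 FPKM and the smallest root mean square difference of centred log2(FPKM + 1), leaving out predicted and small RNA genes.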

Additional observations from a re-analysis of the deposited data

Results flagged for a closer look

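In 7 of 40 groups of 4 libraries, 1 library stood apart from the other 3 by Dixon's criterion. Chance meets it in about 1 in 20 groups of independent values. Libraries here share mice and the groups share libraries, so the 7 groups cannot be judged against that rate. In total RNA of leptotene cells, library 1 held 60.37 FPKM of Ythdf1 against 13.9 to 19.3 in the others, and 107.6 FPKM of Alkbh5 against 13.5 to 27.8. In total RNA of pachytene cells, library 4 held 15.78 FPKM of Ythdf3 against 6.78 to 6.84 and 130 FPKM of Meioc against 76.7 to 83.5. Alkbh5 in pachytene library 1 was at 30.99 FPKM against 37.4 to 37.5. In nascent RNA of leptotene cells, library 3 held 2.781 FPKM of Mettl3 against 0.557 to 0.887, and library 2 held 2.658 FPKM of Mettl14 against 5.65 to 6.13.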

How the results depend on the processing

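Of the 10 genes, 0, 2 and 2 were called in total RNA (leptotene minus spermatogonia, pachytene minus leptotene, pachytene minus spermatogonia), 0, 1 and 2 in nascent RNA and 1, 0 and 0 in the 5S-corrected table. With the mouse as a replicate block, all these counts were 0; the block could not be estimated for the last 2 corrected comparisons and was not run for the interaction. Spike-in scaling gave 0 in total and nascent RNA, and moved the all-gene median from -0.27 to -1.08 and from -0.39 to -1.21 in the nascent pachytene comparisons. The 9 libraries with a 5S-corrected counterpart gave 1, 5 and 1 in total RNA and 1, 4 and 4 in nascent RNA. For nascent pachytene minus leptotene, a pseudocount of 0.1 gave 4, median-ratio scaling 2 and libraries entered singly 3; for nascent pachytene minus spermatogonia, no filter and median-ratio scaling gave 1. In the corrected table, no filter gave 0 and libraries entered singly 3 for leptotene minus spermatogonia, and median-ratio scaling gave 3 in each comparison. Leaving out a library or mouse gave 0 to 1, 0 to 3 and 0 to 3 in total RNA, 0 to 4 and 0 to 3 in the nascent pachytene comparisons and 0 to 1 for corrected leptotene minus spermatogonia. Alkbh5 in nascent pachytene minus spermatogonia turned to 0.18 under the replicate block. Under median-ratio scaling of the corrected table, Ythdc2 turned to 1.05 and Alkbh5 to 0.67 in leptotene minus spermatogonia, and Ythdc2 to -1.26 in pachytene minus leptotene. The cause of these changes was not tested. Counts of the 10 genes under alternatives are given without the share of all genes called in the same fit. They describe the 10 genes alone. Of 2980 values of the 10 genes under alternatives, 223 others changed sign where neither value was called, and 23 of the 112 uncalled pairs of gene and comparison were called under at least 1 alternative. Over all genes, calls ranged from 93 to 4942 around 1883 in total leptotene minus spermatogonia, from 9 to 10768 around 7710 in total pachytene minus leptotene and from 0 to 8346 around 5104 in nascent pachytene minus leptotene. Unknown depth leaves the precision of the writers, at 0.131 to 5.04 FPKM in total RNA, unstated.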
